A study of Mus musculus with 42 samples.

Results

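The matrix metalloproteinase genes Mmp2, Mmp3, Mmp9, Mmp12 and Mmp14 and the genes of the tissue inhibitors of metalloproteinases, Timp1 to Timp4, were read in aorta and skeletal muscle of diabetic mice. They were chosen by gene symbol: every probe that the array annotation gives to 1 of these symbols was taken, which gave 9 genes with 12 probes, out of 21186 genes with a symbol. Transcripts were measured on 42 single-colour Agilent mouse arrays, 1 for each tissue of 3 mice in each of 7 groups. All mice were male and dosed by gavage for 8 weeks. The study's methods give 18 to 20 weeks as the age of the mice taken for it, and no age at tissue collection. Group G was healthy C57BL/6 mice given saline, and group A was KK/Ay mice, a strain that becomes obese and diabetic of its own accord, given saline. Group C was KK/Ay mice made into a model of diabetic macroangiopathy by a high-fat diet and 0.2 mg/ml of the nitric oxide synthase inhibitor L-NAME in the drinking water for 8 weeks, and it was also given saline. Groups B, D, E and F were mice of that same model treated with SHENQI compound, with the yangyinyiqi formula (ginseng, Astragalus, rehmannia, trichosanthin, hawthorn and yam), with the huoxue formula (salvia miltiorrhiza and rhubarb) or with rosiglitazone, an agonist of the nuclear receptor PPAR gamma. Group G is the only group of another strain and shares neither diabetes nor L-NAME with group C, so strain, diabetes and, for group C, the model treatment cannot be told apart in the comparisons with group G. The tissues were taken from 3 mice drawn at random from each group, so a p-value measures the spread between arrays of single mice, and the number of arrays limits its precision.

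Matrix metalloproteinases are zinc-dependent proteases that cut collagens, elastin, proteoglycans and other proteins of the extracellular matrix, and most are secreted as inactive proenzymes that another protease has to cut. Mmp2 and Mmp9 encode the gelatinases, Mmp3 encodes stromelysin-1, Mmp12 encodes macrophage elastase, and Mmp14 encodes a membrane-anchored enzyme that activates the Mmp2 proenzyme on the cell surface with the help of Timp2. TIMP proteins bind the active site of these enzymes and block it, and Timp3 differs from the others in staying bound to the matrix and in blocking several ADAM and ADAMTS proteases as well. In the vessel wall both families are known for the remodelling of the medial elastin and collagen.

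Some arrays stood apart from the others of their tissue in marker genes of cell types. Healthy aorta 1 had a mean log2 level of 9.66 over the 6 smooth muscle markers, against 12.35 to 14.61 on the other 20 aorta arrays, and 12.98 over the neutrophil markers, of which 4 of 5 were on the array, against 7.56 to 11.21. Its mean over the 6 fibroblast markers was 8.496, against 9.67 to 10.51. Healthy muscle 3 had a neutrophil mean of 11.75, against 6.73 to 8.64 on the other muscle arrays, and a macrophage mean of 9.92, against 8.01 to 8.81. The defining markers were present in both tissues: the aorta arrays held smooth muscle transcripts, but also skeletal muscle markers at a mean from 7.24 to 14.91 and brown adipocyte markers from 11.99 to 15.56, and the muscle arrays held skeletal muscle markers at 16.01 to 16.44. The highest skeletal muscle mean in aorta was in group A, at 9.10 to 14.91. It was 7.82 to 12.10 in group G, 8.99 to 11.40 in group C and 8.48 to 13.53 in group F. In such whole-tissue samples fewer cells of a type and less RNA per cell cannot be told apart. The results that rest on group G are therefore given with and without healthy aorta 1 or healthy muscle 3, and the part of these cell types in the results was not tested.

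The probes lie, in the mm9 coordinates of the array annotation, at chr8:95376840-95376899 for Mmp2, chr9:7455751-7455810 for Mmp3, chr2:164780303-164780362 and chr2:164780620-164780679 for Mmp9, chr9:7354810-7355325 for Mmp12, chr14:55058775-55058834 and chr14:55059969-55060028 for Mmp14, chrX:20449905-20449964 and chrX:20451675-20451733 for Timp1, chr11:118163146-118163205 for Timp2, chr10:85811696-85811755 for Timp3 and chr6:115196120-115196179 for Timp4. Timp2 and Timp4 are on the minus strand and the others on the plus strand. Of the 9 genes, 6 were read by 1 probe and 3 by 2 probes. The sequences of 3 probes are shown because the results on Mmp9 and Mmp12 rest on probes close to the background, the Mmp12 probe spans 516 bases of the genome with its 60 bases and so reaches across an intron, and the Mmp14 probe A_52_P304128 went another way than the other probe of that gene.
Mmp9 probe A_51_P401797: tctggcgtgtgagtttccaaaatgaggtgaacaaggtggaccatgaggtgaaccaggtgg
Mmp12 probe A_51_P313674: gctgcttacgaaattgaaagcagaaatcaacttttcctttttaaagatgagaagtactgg
Mmp14 probe A_52_P304128: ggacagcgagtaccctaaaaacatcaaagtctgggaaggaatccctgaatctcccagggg

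Mmp3, whose product stromelysin-1 cuts proteoglycans and activates other metalloproteinases, was the member with the largest difference between healthy and diabetic mice. Its log2 level in healthy aorta was 11.99, 10.94 and 9.63 on the 3 arrays. In the aorta of group A it was 6.90, 7.58 and 7.40, and in that of group C it was 7.04, 7.34 and 6.98. All 3 healthy arrays were above every other aorta array, since the 18 arrays of the other groups lay between 6.64 and 8.74. The brown adipocyte markers, 3 of 3 on the array, had means of 13.08, 15.56 and 14.80 on the 3 healthy arrays, against 12.55 to 13.13 in group A and 12.34 to 13.44 in group C. Healthy aorta 1, the array with the most Mmp3, thus lay within the range of both groups in these markers. They reached 14.25 in huoxue and 14.19 in rosiglitazone aorta, and their part in the Mmp3 difference was not tested. The group means of Mmp3 were 10.85 ± 1.19 (SD, n = 3) in group G, 7.29 ± 0.35 in group A and 7.12 ± 0.19 in group C. A member is said below to have passed where its unadjusted limma p-value was under 0.05, the threshold of the study's methods, and the p-values printed are adjusted over all genes tested. The level was 11.8-fold lower in A than in G, a log2 difference of -3.56 with an SE of 0.66 (limma, Benjamini-Hochberg adjusted p = 0.0225). In C against G it was 13.3-fold lower, with a log2 difference of -3.73 and an SE of 0.64 (limma, adjusted p = 0.0118). Without healthy aorta 1, the brightest healthy array and the one with the most neutrophil and the least smooth muscle transcript, the log2 differences were -2.99 (limma, adjusted p = 0.0347) and -3.16 (limma, adjusted p = 0.0169). Both comparisons passed whichever of the 12 arrays was left out, while the adjusted p was above 0.05 without diabetic aorta 1, 2 or 3 in A against G (0.0694 to 0.0796) and without macroangiopathy aorta 2 or 3 in C against G (0.0532 and 0.0575).

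The order of the Mmp3 means in aorta ran from healthy through yangyinyiqi, huoxue, SHENQI, rosiglitazone and diabetic to macroangiopathy, and from the yangyinyiqi group down each group overlapped the next in its arrays. The difference between healthy and other aortas was also seen on arrays that shared a slide. On slide 1 both healthy aortas lay at 9.63 to 11.99 and the aortas of 1 diabetic and 1 SHENQI mouse at 6.64 to 6.90. On slide 2 the healthy aorta lay at 10.94 and 2 others at 7.87 to 8.74. In skeletal muscle the healthy levels were 9.46, 7.83 and 10.38, those of group A 6.93, 7.87 and 7.45, and those of group C 6.89, 7.21 and 7.26. Of the 18 muscle arrays of the other groups, 17 lay below all healthy ones, and the exception was diabetic muscle 2. The log2 difference in muscle was -1.81 in A against G (3.50-fold, limma, adjusted p = 0.268) and -2.10 in C against G (4.29-fold, limma, adjusted p = 0.168). Both passed. Without healthy muscle 3 they became -1.23 (limma, adjusted p = 0.507) and -1.52 (limma, adjusted p = 0.297), so that A against G no longer passed, nor did it without diabetic muscle 1 (-1.56) or healthy muscle 1 (-1.69). It passed at -1.23 when healthy aorta 1 was left out along with healthy muscle 3 (limma, adjusted p = 0.242). The difference between the tissues in the A against G change was -1.75 (limma interaction term, adjusted p = 0.783), and in the C against G change it was -1.63 (limma interaction term, adjusted p = 0.501), and neither passed.

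**Figure D1:**
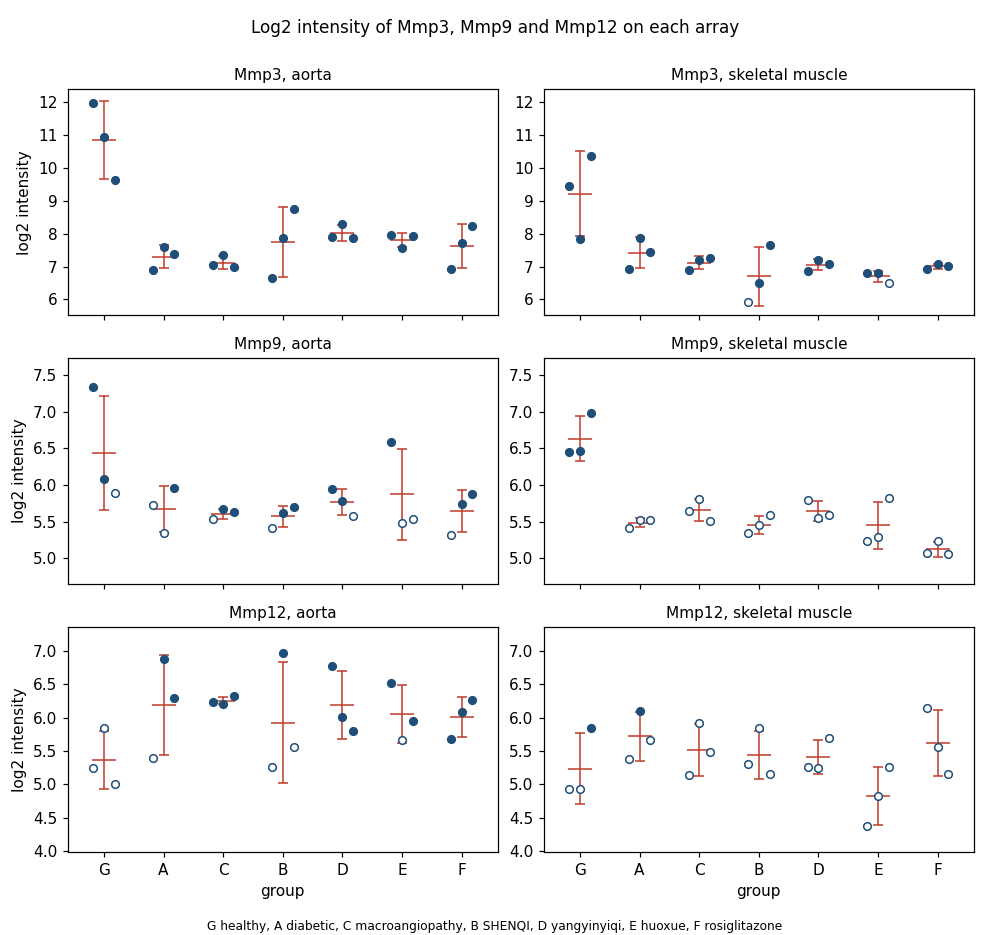
Log2 level (normalized, vertical axis) of Mmp3, Mmp9 and Mmp12 on each array, by group (horizontal axis) and tissue; circles are arrays, open circles are arrays on which no probe of the gene was well above background, and bars are the mean ± SD of 3 arrays. Healthy aorta lies at 9.63 to 11.99 for Mmp3 and the 18 other aorta arrays at 6.64 to 8.74, and in muscle Mmp9 was above background on the 3 healthy arrays alone.

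The promoter of Mmp3 is printed because the gene had the largest difference, in the 250 bases before its RefSeq start on the plus strand (GRCm38.p6, chr9:7445572-7445821). Capitals mark an AP-1 motif (TGAGTCA or TGACTCA, either strand) that begins 46 bases before the start, and a TATA box motif (TATAAA, sought on the strand of the gene only).
Mmp3 promoter: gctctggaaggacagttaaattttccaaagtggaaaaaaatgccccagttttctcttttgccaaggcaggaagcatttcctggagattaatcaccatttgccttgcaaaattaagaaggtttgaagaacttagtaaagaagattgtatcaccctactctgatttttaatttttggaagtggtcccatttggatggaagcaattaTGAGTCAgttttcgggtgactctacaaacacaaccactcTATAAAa
Of 32851 promoters of this length in the table, 4.46% held the AP-1 motif and 7.59% the TATA box motif. A promoter was found for 7 of the 9 genes, all but Mmp2 and Mmp9. Besides Mmp3, 1 of the 2 promoters listed for Mmp12 held the AP-1 motif, 44 bases before the start, and no other member did. A match describes the letters and is not evidence of a bound site.

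Mmp9, the gelatinase of neutrophils and macrophages, was close to the background. In healthy muscle its log2 level was 6.45, 6.46 and 6.99, well above background on all 3 arrays. On the 18 muscle arrays of the other groups it was 5.06 to 5.82, well above background on none. Healthy muscle thus stood above all others without overlap. Both comparisons passed. The level was 2.21-fold higher in healthy than in diabetic muscle (limma, adjusted p = 0.155) and 1.97-fold higher than in macroangiopathy muscle (limma, adjusted p = 0.199). Set against a floor for the dim group, the healthy mean was 2.02-fold and 1.89-fold higher. The floor on each array is the higher of the gene's own level and the dimmest signal that counted as above background. That signal was far below the level of Mmp9 on diabetic muscle 2 (-0.74) and on macroangiopathy muscle 2 (0.53) and 3 (-0.74). The floor is therefore not a strict bound. Mmp9 entered these tests through healthy muscle alone, the set where it was high, and without the filter on dim probes both passed as well (limma, adjusted p = 0.190 and 0.229). Both passed without healthy muscle 3 as well (limma, adjusted p = 0.330 and 0.335), and neither passed when each tissue was quantile normalized on its own. Without healthy aorta 1 the folds were the same, and both passed after adjustment too (limma, adjusted p = 0.0137 and 0.0133). They also did with healthy muscle 3 left out along with it, at 1.95-fold and 1.74-fold (limma, adjusted p = 0.0280 and 0.0123). The macrophage markers, 7 of 7 on the array, moved with Mmp9: their mean was 8.61 to 9.92 in healthy muscle and 8.01 to 8.53 on the 18 other muscle arrays. The neutrophil markers overlapped, at 6.73 to 11.75 in healthy muscle and 6.97 to 7.77 on the 18 others, and the part of either cell type was not tested.

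In aorta Mmp9 was well above background on 12 of 21 arrays, of which 2 were healthy, 1 was of group A and 2 were of group C. Its level was 7.33, 6.08 and 5.90 in healthy aorta, 5.73, 5.34 and 5.96 in group A, and 5.54, 5.67 and 5.63 in group C. The highest of these was healthy aorta 1, and the other healthy aortas lay near the top of the diabetic ones. The log2 difference was -0.76 in A against G (limma, adjusted p = 0.280) and -0.82 in C against G (limma, adjusted p = 0.147). Both passed with all arrays and neither did without healthy aorta 1, where they were -0.31 (limma, adjusted p = 0.589) and -0.38 (limma, adjusted p = 0.255). When healthy muscle 3 was left out too, C against G passed at the same log2 difference (limma, adjusted p = 0.0899). C against G also failed to pass without macroangiopathy aorta 1 (-0.79) or 3 (-0.83). A against G failed to pass without any of 8 of the 12 arrays, which were diabetic aorta 1 and 2, the 3 diabetic muscles, healthy aorta 1 and healthy muscle 1 and 2, with log2 differences from -0.79 to -0.31. The 2 probes of Mmp9 had a Pearson r of 0.87 over the 21 aorta arrays and 0.84 over the 21 muscle arrays.

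Mmp12, the elastase of macrophages, was the only protease of the 5 that was well above background in no healthy aorta and in all 3 aortas of group C. Its level was 6.24, 6.21 and 6.32 in group C, 5.396, 6.89 and 6.29 in group A and 5.24, 5.85 and 5.01 in healthy aorta. The arrays of group C lay above those of group G, while group A overlapped it with 1 array that was not well above background. The level was 1.85-fold higher in C than in G (limma, adjusted p = 0.101). Set against the same kind of floor, which is not a strict bound, it was 1.49-fold higher in C and 1.42-fold higher in A. Group A was taken as the mean of its 3 arrays although 1 of them was not well above background. Mmp12 entered the test of C against G through group C alone, the group where it was high, and in A against G it was not tested because no set of 3 arrays passed the filter. C against G still passed without healthy aorta 1, at a log2 difference of 0.83 (limma, adjusted p = 0.177), but not without healthy aorta 3, at 0.71 (limma, adjusted p = 0.233). The dimmest aorta arrays were those of slide 1, where the 4 arrays lay at 5.01 to 5.396 and the 17 on other slides at 5.56 to 6.96, and healthy aortas 1 and 3 are among the former. With a term for these slides (slides 1, 3 and 11 against the rest, fitted on the 42 arrays together) the Mmp12 difference of C and G was 0.25 (limma, adjusted p = 0.690) and did not pass. In skeletal muscle Mmp12 was well above background on 2 of 21 arrays.

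Mmp2, which encodes the gelatinase made by fibroblasts and smooth muscle cells, went the other way from Mmp3 in aorta. Its level was 7.89, 9.72 and 9.03 in healthy aorta, 10.46, 10.02 and 9.75 in group A, and 10.23, 9.85 and 9.71 in group C. The lowest aorta of all was healthy aorta 1, and only the highest healthy array reached the range of group C. The log2 difference was 1.19 with an SE of 0.41 in A against G (2.29-fold, limma, adjusted p = 0.165) and 1.05 in C against G (2.07-fold, limma, adjusted p = 0.149), and both passed. Neither passed without healthy aorta 1, with values of 0.70 (limma, adjusted p = 0.335) and 0.56 (limma, adjusted p = 0.333). With healthy muscle 3 left out too, A against G passed at 0.70 (limma, adjusted p = 0.183). A against G was also lost without diabetic aorta 1 (1.003), and C against G without macroangiopathy aorta 1 (0.90). The markers of both cell types moved the same way. The fibroblast mean was 8.496 to 9.95 in healthy aorta, 9.82 to 10.51 in group A and 9.98 to 10.01 in group C, and the smooth muscle mean was 9.66 to 13.39, 13.32 to 14.24 and 14.12 to 14.57. Their part in the Mmp2 difference was not tested. In muscle Mmp2 lay between 9.63 and 10.69 on the 21 arrays, and the log2 differences were 0.13 in A against G and -0.06 in C against G.

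Mmp14, which encodes the membrane-anchored activator of Mmp2, was read by 2 probes that did not move together. Their Pearson r was -0.31 over the 21 aorta arrays and 0.23 over the 21 muscle arrays. Probe A_51_P216303 was lower on slides 1, 3 and 11 than on all others without overlap, at 8.52 to 9.61 on the 4 aorta arrays, all of slide 1, against 9.83 to 11.15 on 17, and at 8.49 to 9.37 on 8 muscle arrays against 9.47 to 10.40 on 13. Probe A_52_P304128 overlapped between the same slides in both tissues. The mean of both probes was 8.79, 8.46 and 7.78 in healthy aorta, 8.28, 8.46 and 8.53 in group A, and 8.58, 8.83 and 9.17 in group C. The group ranges overlapped in C against G, and the log2 difference was 0.52 (limma, adjusted p = 0.329), which did not pass. By probe, it was 1.32 for A_51_P216303 (limma, adjusted p = 0.103), which passed, and -0.28 for A_52_P304128 (limma, adjusted p = 0.476), which did not, so the direction depends on the probe. The mean of both probes differed by 0.74 without healthy aorta 1 (limma, adjusted p = 0.183), which passed.

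**Figure D2:**
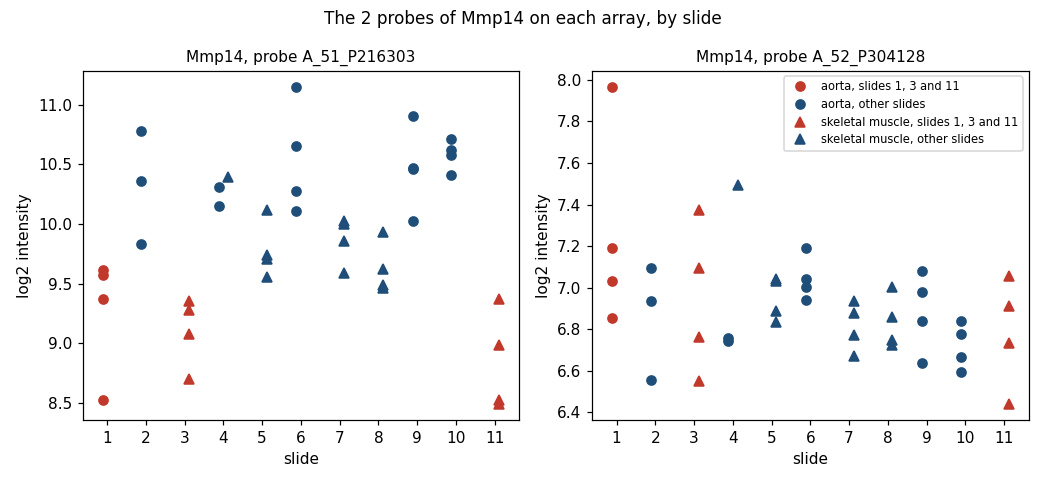
Log2 level (vertical axis) of the 2 Mmp14 probes on each of the 42 arrays, by slide (horizontal axis) and tissue, with the arrays of slides 1, 3 and 11 in red. For A_51_P216303 the red arrays lie below all others in each tissue, at 8.52 to 9.61 against 9.83 to 11.15 in aorta, and for A_52_P304128 they overlap the others.

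Timp3, the inhibitor that stays in the matrix, was higher in every aorta of the KK/Ay mice than in any healthy aorta. Its level was 11.26, 13.34 and 12.71 in healthy aorta, 13.82, 13.62 and 14.06 in group A, and 14.14, 14.69 and 14.39 in group C. The 18 aortas of the other groups lay at 13.43 to 14.70, above all 3 healthy arrays. The log2 difference in C against G was 1.97 with an SE of 0.41, or 3.92-fold (limma, adjusted p = 0.0241). In A against G it was 1.40 with an SE of 0.41, or 2.63-fold (limma, adjusted p = 0.117). With healthy aorta 1, the array with the lowest smooth muscle mean, left out, the differences were 1.38 (limma, adjusted p = 0.00873) and 0.81 (limma, adjusted p = 0.106). Both passed without each array in turn, and the adjusted p of C against G was above 0.05 without healthy aorta 3 (0.0521) or macroangiopathy aorta 2 (0.109) or 3 (0.0905). On slide 1 the healthy aortas lay at 11.26 to 12.71 and the 2 others at 13.65 to 13.82, and on slide 2 at 13.34 against 13.76 to 14.70. The smooth muscle markers moved the same way: their mean was 14.12 to 14.57 in group C, 13.32 to 14.24 in group A and 9.66 to 13.39 in healthy aorta, and their part in the Timp3 difference was not tested.

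In muscle Timp3 was 12.52, 12.23 and 12.03 in healthy mice and 12.89, 12.90 and 12.95 in group C. The groups did not overlap, and 14 of the 18 muscle arrays of the other groups lay above all healthy ones. The log2 difference was 0.65 in C against G (limma, adjusted p = 0.534) and 0.64 in A against G (limma, adjusted p = 0.564), and neither passed with all arrays. Both passed at the same values when healthy aorta 1 was left out of the fit (limma, adjusted p = 0.113 and 0.133), and when healthy muscle 3 was left out too, at 0.54 (limma, adjusted p = 0.181) and 0.53 (limma, adjusted p = 0.244). Without healthy muscle 3 alone neither did. On slide 3, where healthy and rosiglitazone muscles shared a slide, they overlapped, at 12.23 to 12.52 and 12.23 to 12.26. The difference between aorta and muscle in the C against G change was 1.32 (limma interaction term, adjusted p = 0.394), which passed with all arrays and not without any of 8 of the 12 (1.18 to 1.43).

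The promoter of Timp3 is shown beside that of Mmp3, since these 2 genes passed in C against G after adjustment in opposite directions. It is given for the 250 bases before the RefSeq start on the plus strand (GRCm38.p6, chr10:86300162-86300411), with a GC box motif (GGGCGG or CCGCCC, either strand) in capitals.
Timp3 promoter: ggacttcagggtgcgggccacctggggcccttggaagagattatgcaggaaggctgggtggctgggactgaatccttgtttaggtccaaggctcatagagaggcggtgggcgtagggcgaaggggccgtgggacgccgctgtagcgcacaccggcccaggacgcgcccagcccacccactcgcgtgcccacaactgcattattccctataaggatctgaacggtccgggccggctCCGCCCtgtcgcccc
The GC box was present in 32.7% of all promoters of this length, and among the members it was found once each in Timp1, Timp2 and Timp3, with 2 matches in Mmp14 and none in Mmp3, Mmp12 or Timp4. The GC content of the window was 65.6% for Timp3 and 68% for Timp2, against 37.6% for Mmp3.

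Timp2, which both blocks Mmp2 and helps Mmp14 to activate it, lay at 12.81, 14.76 and 14.845 in healthy aorta, at 15.84, 14.74 and 15.29 in group A, and at 15.45, 15.70 and 15.76 in group C. All arrays of group C were above the healthy ones, and 1 array of group A was within them. Both comparisons passed, with a log2 difference of 1.4998 in C against G (2.83-fold, limma, adjusted p = 0.0935) and 1.15 in A against G (2.22-fold, limma, adjusted p = 0.293). When healthy aorta 1 was left out, C against G passed at 0.84 (limma, adjusted p = 0.137) and A against G did not at 0.49 (limma, adjusted p = 0.638). With healthy muscle 3 left out too, C against G in aorta passed after adjustment at 0.84 (limma, adjusted p = 0.00689), and A against G did not pass at 0.49. A against G failed to pass without any of 8 of the 12 arrays (0.49 to 1.15), which were diabetic aorta 1 and 3, the 3 diabetic muscles, healthy aorta 1 and healthy muscle 1 and 2. In muscle Timp2 lay at 13.43 to 14.69, and no comparison passed with all arrays. C against G was -0.20 in muscle with all arrays and -0.59 without healthy muscle 3, which did not pass. When healthy aorta 1 was left out too, C against G passed at -0.59 (limma, adjusted p = 0.0419) and A against G at -0.62 (limma, adjusted p = 0.244). The difference between the tissues in the C against G change was 1.70 (limma interaction term, adjusted p = 0.354), which passed with all arrays and not without any of 7 of the 12 (1.46 to 1.72).

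Timp1, the inducible and secreted inhibitor, and Timp4, an inhibitor known from heart and muscle, passed in neither comparison with group G with all arrays. Timp1 lay at 8.47 to 10.11 on the 21 aorta arrays. Its log2 difference in aorta in C against G was 0.36. Without healthy aorta 1 it was 0.73 (limma, adjusted p = 0.543), which did not pass. With healthy muscle 3 left out too, it passed at 0.73 (limma, adjusted p = 0.0880). In healthy muscle Timp1 was 8.38, 8.63 and 10.96, and the highest of these was healthy muscle 3, the array with the most neutrophil and macrophage transcript. Its log2 difference in muscle was -0.71 in A against G and -0.82 in C against G, and without that array it was 0.11 and 0.00. The 2 probes of Timp1 had a Pearson r of 0.88 over the aorta arrays and 0.996 over the muscle arrays. Timp4 lay at 8.51 to 11.51 in aorta, with healthy aorta 1 at the lower end, and at 9.89 to 11.29 in muscle, and its log2 difference in aorta was 0.87 in both comparisons, or 0.24 in both without healthy aorta 1.

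**Figure D3:**
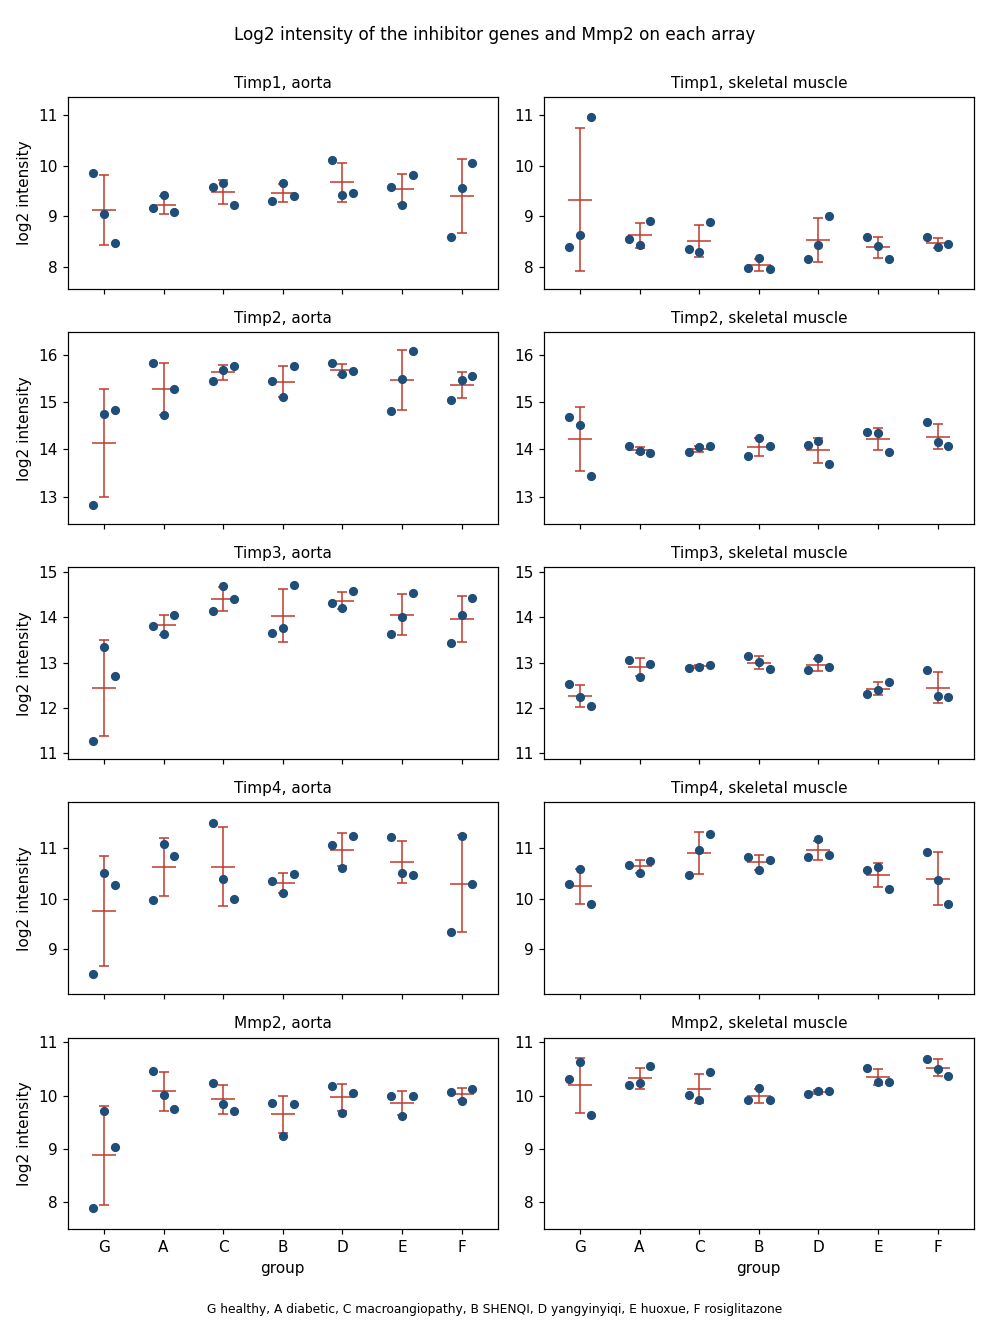
Log2 level (vertical axis) of Timp1 to Timp4 and Mmp2 on each array by group (horizontal axis) and tissue; circles are arrays and bars the mean ± SD of 3 arrays. Timp3 in aorta lies at 13.43 to 14.70 on the 18 arrays of the other groups, above the 3 healthy arrays at 11.26 to 13.34.

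The count of members that passed against group G depended on the healthy arrays that stood apart. With all arrays, in A against G, 5 of the 8 tested members passed an unadjusted p-value of 0.05 in aorta, with Mmp2, Timp2 and Timp3 higher and Mmp3 and Mmp9 lower, where 17% of all 14808 genes tested passed. After adjustment Mmp3 alone passed, where 2.22% of all genes did. In muscle 2 of 8 passed, Mmp3 and Mmp9, both lower, where 12.7% of all genes did, and none after adjustment, where 1.45% did. In C against G, 6 of 9 passed in aorta, with Mmp2, Mmp12, Timp2 and Timp3 higher and Mmp3 and Mmp9 lower, where 24.2% of 15741 genes passed. After adjustment 2 of 9 passed, Mmp3 and Timp3, where 6.16% of all genes did. In muscle 2 of 9 passed, Mmp3 and Mmp9, where 13.9% of all genes did, and none after adjustment, where 1.56% did. Without healthy aorta 1 the counts in A against G were 2 in aorta and 3 in muscle, where 15.7% and 19.2% of all genes passed. In C against G they were 5 and 3, where 22.9% and 20.4% of all genes did. After adjustment Mmp9 then passed in muscle in both comparisons, where 3.43% and 3.62% of all genes did. Mmp9 and Mmp12 entered only through a group where they were high. Over the 7 other members, all arrays gave 4 in aorta and 1 in muscle in each of the 2 comparisons.

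The median log2 difference of the members in aorta was 0.48 in A against G and 0.87 in C against G, against medians of 0.02 and 0.01 over all genes tested. In muscle it was -0.11 and -0.06, against 0.03 in both over all genes. No member passed after adjustment in the test of the difference between aorta and muscle in A against G or in C against G, where 0.0743% and 0.108% of all genes did. These shares were 0.371% and 0.959% without healthy aorta 1, and 0.0135% and 0.14% without healthy muscle 3. Before adjustment Timp2 and Timp3 passed that test in C against G, where 1950 of 15741 genes did. Both comparisons share the arrays of group G.

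**Figure D4:**
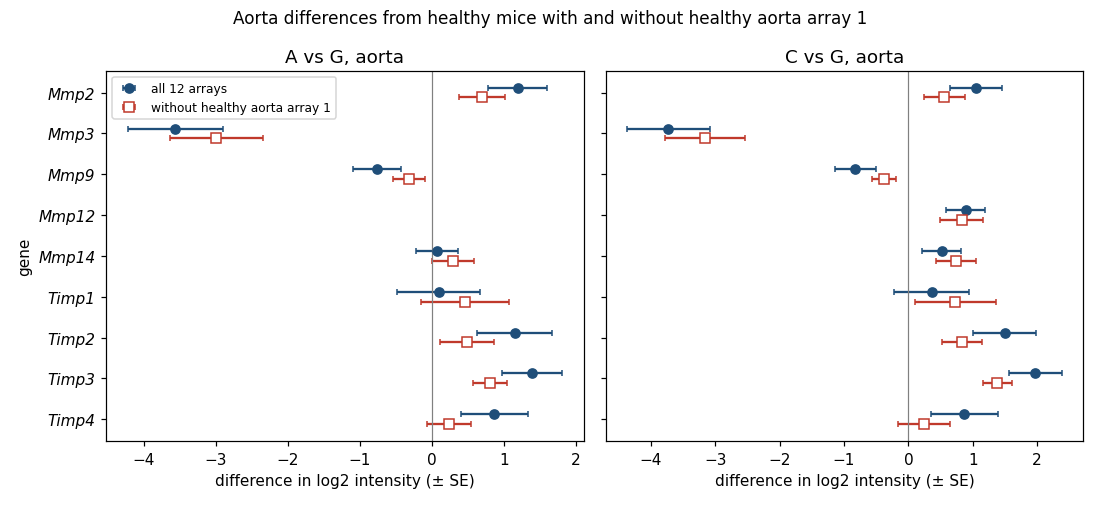
Log2 difference in aorta (horizontal axis, with SE) of each member in A against G and in C against G, with all 3 healthy aortas and without healthy aorta 1. Mmp3 stays at -2.99 and -3.16 and Timp3 at 0.81 and 1.38 without that array, while Mmp2 moves from 1.19 to 0.70 and from 1.05 to 0.56.

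The comparison of C with A asks what the high-fat diet and L-NAME added in KK/Ay mice. In aorta 2 of 8 members passed, Timp3 and Mmp14, both higher, where 7.73% of 15722 genes passed. Timp3 was at 14.14 to 14.69 in group C and 13.62 to 14.06 in group A without overlap, with a log2 difference of 0.58 and an SE of 0.16 (1.49-fold, limma, adjusted p = 0.393). Mmp14 differed by 0.44 with an SE of 0.15 (1.36-fold, limma, adjusted p = 0.513), by probe 0.69 for A_51_P216303 (limma, adjusted p = 0.622) and 0.18 for A_52_P304128 (limma, adjusted p = 0.771). Without macroangiopathy aorta 3 the mean of both probes differed by 0.28 (limma, adjusted p = 0.892) and did not pass. Diabetic aorta 1 was on slide 1 and the arrays of group C were all on slide 6, and with the term for slides 1, 3 and 11 neither passed, at 0.44 for Timp3 and 0.30 for Mmp14. In muscle no member passed at an unadjusted p-value of 0.05, where 2.87% of all genes did, and the 8 log2 differences lay between -0.30 and 0.26.

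Each treatment was compared with group C, which all 4 comparisons share. With SHENQI compound no member passed in aorta, where 4.67% of 15663 genes did, with log2 differences from -0.37 to 0.63. In muscle 1 of 8 passed, where 1.14% of all genes did. It was Timp1, at 7.97, 8.17 and 7.95 with SHENQI compound and 8.36, 8.29 and 8.88 in group C. All SHENQI arrays were below those of group C, and the log2 difference was -0.48 with an SE of 0.18, or 1.39-fold (limma, adjusted p = 0.99998). On slide 7, which held 2 arrays of each of these groups, it was -0.26. Timp1 did not pass without SHENQI muscle 1 (-0.45), SHENQI muscle 3 (-0.44) or macroangiopathy muscle 3 (-0.29).

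With the yangyinyiqi formula Mmp3 was higher in aorta, at 7.89, 8.30 and 7.87 against 7.04, 7.34 and 6.98 in group C. The groups did not overlap, yet all 3 values stayed below the lowest healthy aorta. The log2 difference was 0.90 with an SE of 0.16, or 1.86-fold (limma, adjusted p = 0.9999), and it was 0.77 within slide 6, which held all 3 arrays of group C and 1 of the yangyinyiqi group. Mmp3 was the only member of 8 that passed, where 3.9% of 15893 genes did. In muscle none passed, where 1.81% of all genes did, and the 8 log2 differences lay between -0.18 and 0.06. The difference between the tissues in the Mmp3 change was 0.97 with an SE of 0.22 (limma interaction term, adjusted p = 0.99996), which passed before adjustment only. The aorta difference no longer passed with the spread taken over all 42 arrays, with or without the slide as a random block or the term for slides 1, 3 and 11 (0.88 to 0.90).

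With the huoxue formula Mmp3 was higher in aorta than in group C and, in the fit of the 12 arrays, lower in muscle. The direction in muscle turned in the fit with the term for slides 1, 3 and 11. In aorta it was 7.97, 7.57 and 7.92, above all arrays of group C, with a log2 difference of 0.70 and an SE of 0.16 (1.62-fold, limma, adjusted p = 0.734). That call was lost over all 42 arrays, with the slide as a random block and with the term for slides 1, 3 and 11 (0.67 to 0.70), and with 1 difference fitted over both tissues (0.14). In muscle it was 6.79, 6.81 and 6.5006, the last of these not well above background, against 6.89, 7.21 and 7.26 in group C, with a log2 difference of -0.42 and an SE of 0.16 (1.34-fold, limma, adjusted p = 0.121). With the term for slides 1, 3 and 11 the muscle difference was 0.61 and did not pass. That term was estimated only from groups with arrays both on these slides and on others, which were healthy, diabetic and SHENQI aorta and healthy muscle. Healthy muscle 3, which stood apart, was among these arrays, and no huoxue muscle was. The fit with 1 difference over both tissues gave 0.14, which did not pass and holds no estimate for muscle alone. The difference between the tissues was 1.12 with an SE of 0.22 (limma interaction term, adjusted p = 0.0256), and 3.05% of all genes passed that test after adjustment. Its adjusted p was above 0.05 without any of 6 of the 12 arrays (0.0527 to 0.0742): huoxue muscle 2 or 3, macroangiopathy aorta 1 or 3, and macroangiopathy muscle 2 or 3. All huoxue muscle arrays were on slide 11, while the muscle arrays of group C were on slides 7 and 8, so slide and treatment cannot be told apart there without the other groups. With the term for slides 1, 3 and 11 the difference between the tissues was 0.09, and with the slide as a random block it was 0.99 (limma, adjusted p = 0.878), and neither passed.

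In aorta Mmp3 was the only one of 8 members that passed with the huoxue formula, where 4.74% of 15726 genes did. In muscle 4 of 8 passed, Mmp3, Mmp12, Mmp14 and Timp3, where 25.4% of all genes did, and none after adjustment, where 10.6% did. Mmp12 had entered this test through the aortas of group C, and the count over the 7 members other than Mmp9 and Mmp12 was 3. Mmp14 was 8.05, 7.79 and 7.70 against 8.37, 8.47 and 8.31, without overlap, with a log2 difference of -0.54 and an SE of 0.19 (1.45-fold, limma, adjusted p = 0.104). By probe it was -1.03 for A_51_P216303 (limma, adjusted p = 0.04997) and -0.04 for A_52_P304128 (limma, adjusted p = 0.887). Timp3 was 12.31, 12.39 and 12.58 against 12.89, 12.90 and 12.95, without overlap, with a log2 difference of -0.49 and an SE of 0.21 (1.40-fold, limma, adjusted p = 0.171). Mmp12 was well above background on 0 of the 6 arrays, so its log2 difference of -0.69 (limma, adjusted p = 0.141) lies within the background and no fold is given. The median of the members was -0.43, against 0.05 over all genes tested. With the term for slides 1, 3 and 11 none of the 4 passed: the differences were -0.12 for Mmp14 and -0.09 for Timp3, and Mmp3 and Mmp12 turned direction, to 0.61 and 0.27. Each of the 4 failed to pass without certain single arrays. For Mmp14 they were huoxue muscle 3 and macroangiopathy muscle 2 (log2 differences from -0.49 to -0.46), and for Mmp3 these arrays and macroangiopathy muscle 3 (-0.38 to -0.32). For Mmp12 they were huoxue muscle 1 and 2 and macroangiopathy muscle 2 and 3 (-0.70 to -0.47), and for Timp3 huoxue muscle 1 and 2, macroangiopathy aorta 3 and the 3 macroangiopathy muscles (-0.50 to -0.43).

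With rosiglitazone no member passed in aorta at an unadjusted p-value of 0.05, where 11.6% of 15843 genes did, and the log2 differences lay between -0.44 and 0.50. In muscle Mmp14 was lower and Mmp2 higher, 2 of 8 members, where 18.5% of all genes passed, and none passed after adjustment, where 3.5% did. Mmp14 was 7.71, 7.91 and 7.92 against 8.37, 8.47 and 8.31 in group C, without overlap, with a log2 difference of -0.53 and an SE of 0.14 (1.45-fold, limma, adjusted p = 0.0638). Both probes were lower, by log2 differences of -0.71 (limma, adjusted p = 0.0779) for A_51_P216303 and -0.36 (limma, adjusted p = 0.0767) for A_52_P304128. Mmp2 was 10.69, 10.50 and 10.37 against 10.02, 9.92 and 10.44, with overlap, and the log2 difference was 0.39 with an SE of 0.17 (1.31-fold, limma, adjusted p = 0.245), and it did not pass without any of 5 of the 12 arrays, macroangiopathy aorta 2, macroangiopathy muscle 1 or 2 and rosiglitazone muscle 1 or 2 (0.29 to 0.40). The rosiglitazone muscles were on slides 3 and 11, and with the batch term the differences were -0.12 for Mmp14 and 0.27 for Mmp2, and neither passed. That term was estimated from other groups, since no rosiglitazone muscle was on a slide outside the batch. After adjustment no member passed in the test of a difference between the tissues, where 1.51% of all genes did.

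**Figure D5:**
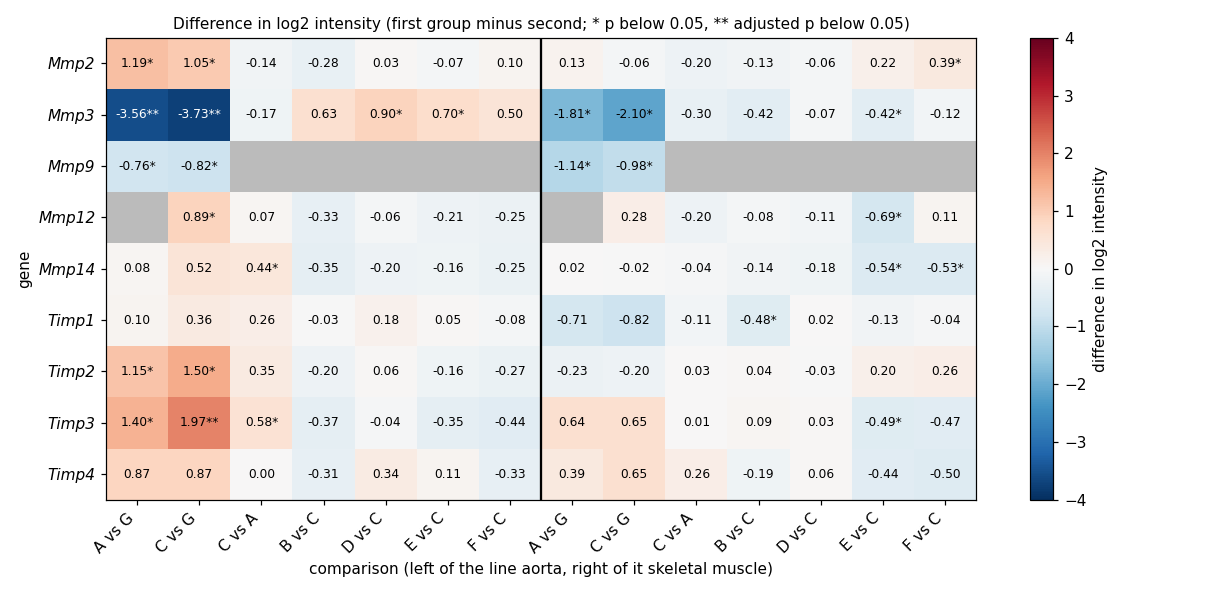
Heat map of the log2 difference of each member (rows) in the 7 comparisons in aorta and in muscle (columns), with * for an unadjusted p-value below 0.05, ** for an adjusted one, and grey where the gene did not pass the filter. The largest values are those of Mmp3 in aorta, -3.56 in A against G and -3.73 in C against G.

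Between the tissues, 7 of 9 members differed over all 42 arrays after adjustment, where 76.9% of 16176 genes did. Timp2 and Timp3 were higher in aorta by a log2 difference of 1.18 (limma, adjusted p = 3.55e-09) and 1.17 (limma, adjusted p = 4.33e-10). Timp1 was higher there by 0.86, Mmp3 by 0.75, Mmp12 by 0.60 and Mmp14 by 0.39, and Mmp2 was lower there by a log2 difference of -0.45. Mmp9 and Timp4 did not pass, with differences of 0.16 (limma, adjusted p = 0.139) and -0.14 (limma, adjusted p = 0.419). Mmp12 in muscle was well above background on 2 of 21 arrays only.

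Other genes of the pathway were taken from 4 lists with 55 genes in all, and the background for their counts in C against G in aorta is the 24.2% of all genes that passed there. Of the 18 other matrix metalloproteinase genes, 16 were on the array and 8 to 9 passed the filter. In C against G in aorta 3 of 9 passed, with a median log2 difference of 0.40 against 0.01 over all genes. Among them Mmp23 was higher by 1.69 (3.22-fold, limma, adjusted p = 0.0615) and Mmp17 by 1.40 (2.64-fold, limma, adjusted p = 0.107), and without healthy aorta 1 they were higher by 1.11 and 0.67. In the huoxue group Mmp15 was lower in aorta by a log2 difference of -0.58 (limma, adjusted p = 0.950).

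Of 15 activators, inhibitors and partners of the proteases, 14 were tested, and 6 passed in C against G in aorta, where 24.2% of all genes did. Of these 5 were higher and 1 lower, while the median log2 difference of the list was -0.20, against 0.01 over all genes. The largest differences without overlap were those of Serpine2, an inhibitor of serine proteases such as plasminogen activators (2.12, limma, adjusted p = 0.0624), Reck, a membrane-bound inhibitor of metalloproteinases (1.07, limma, adjusted p = 0.0656), and Lrp1, the receptor that clears protease and inhibitor complexes (1.01, limma, adjusted p = 0.0501). These were 1.41, 0.82 and 0.70 without healthy aorta 1. Serpine2 was also higher in C than in A in aorta, by 0.84 (1.79-fold, limma, adjusted p = 0.117). Lcn2, whose product binds the Mmp9 protein and is made by neutrophils, was lower in diabetic than in healthy muscle by a log2 difference of -3.08 (limma, adjusted p = 0.356), and without healthy muscle 3 by -2.27, which did not pass. A2m, which encodes a broad protease inhibitor of plasma, was higher in huoxue muscle than in group C by 0.74 (1.67-fold, limma, adjusted p = 0.00727), the only list gene that passed after adjustment in a treatment comparison. The huoxue muscles were all on slide 11 and those of group C on slides 7 and 8, so slide and treatment cannot be told apart. A2m was also higher in rosiglitazone muscle, on slides 3 and 11, by 0.61 (limma, adjusted p = 0.0568).

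Among 16 ADAM and ADAMTS genes whose products are open to TIMP inhibition, 15 were tested in C against G, and 4 passed in aorta, a share close to the 24.2% of all genes. Adamts15 was higher by 1.27 in A against G (2.42-fold, limma, adjusted p = 0.0201) and by 1.60 in C against G (3.03-fold, limma, adjusted p = 0.00886), and without healthy aorta 1 by 0.97 (limma, adjusted p = 0.00795) and 1.30 (limma, adjusted p = 0.00551). Adamts1, a protease of the proteoglycans aggrecan and versican, was higher in C against G in aorta by 0.89 (1.85-fold, limma, adjusted p = 0.0418), and without healthy aorta 1 by 0.92 (limma, adjusted p = 0.0525). In muscle Adamts1 was lower in the same comparison by a log2 difference of -0.86 (limma, adjusted p = 0.0968). Of the 6 cathepsin and cystatin genes 2 passed in C against G in aorta, and Cst3, which encodes the cathepsin inhibitor cystatin C, was higher by 1.20 (2.30-fold, limma, adjusted p = 0.0130), or 0.99 (limma, adjusted p = 0.0151) without healthy aorta 1. Ctsl, a lysosomal cathepsin, was lower in muscle by a log2 difference of -1.04 in A against G (limma, adjusted p = 0.182) and -1.07 in C against G (limma, adjusted p = 0.177), and without healthy muscle 3 by -0.71 and -0.74.

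Finally, the genes with the most similar pattern were sought by Pearson r over the 21 arrays of a tissue, for members well above background on all of them. These arrays share groups, slides and cell content, and the r values are a description. In aorta Timp3 was nearest to Zfp704 (r = 0.98), Pdgfa (0.96) and Arhgef25 (0.96), with r from 0.90 to 0.94 over the 20 arrays without healthy aorta 1. Timp2 was nearest to Gm20027 (r = 0.98) and to Myh11, the smooth muscle myosin heavy chain (0.96), the latter at 0.88 without healthy aorta 1. Mmp3 was nearest to 4833442J19Rik (0.92), Stt3b (0.91) and Sdc4 (0.91), Mmp2 to 9530091C08Rik (0.93), Sspn (0.91) and Neat1 (0.91), and Mmp14 to Rnf169 (0.88). In muscle Timp3 was nearest to Clstn1 (0.93), Timp2 to Sdc2 (0.91) and Timp1 to Mustn1 (0.91), and the last fell to 0.37 without healthy muscle 3. Timp4 had Kank3 among its 3 nearest genes in both tissues, with r of 0.91 in aorta and 0.83 in muscle.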

How the data were processed

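The authors hybridized labelled RNA of each tissue and mouse to 1-colour Agilent arrays, in all 42 on 11 slides. The deposited scanner output (Agilent Feature Extraction 10.7, per the submitters' processing notes) gives the intensity of 45018 spots per array, 1639 of them controls, and the file headers name mm9. Of the files, 8 hold all columns and 34 fewer, so the median intensity was used, since the shorter ones lack the mean. A value table of 41267 probes on the log2 scale, also deposited, served as an alternative.

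Intensities were corrected with normexp (offset 0), quantile normalized over 42 arrays as log2 values in limma 3.58.1 (R 4.3.3, data.table at 1.17.8, jsonlite 2.0.0, statmod 1.5.0). Control spots were left out, irregular spots (51 to 112 per array) set to missing, spots of a probe averaged and probes of a symbol averaged, which gave 41174 probes, 34891 with a symbol. From 20198 to 30274 probes of an array counted as well above background. Genes were tested if any probe did so on every 1 of the 3 arrays in at least 1 set compared. For each comparison 4 means were fitted to 12 arrays (lmFit, eBayes), with an interaction contrast for the difference between tissues. Aorta and muscle were compared over 42 arrays with 14 means. The threshold was an unadjusted p-value of 0.05, as in the study's methods, with Benjamini-Hochberg adjusted values over all genes tested beside it. The fits were tested on simulated data. Python 3.11.15 served for tables and plots, with pandas 2.3.3, numpy 2.4.6 and matplotlib 3.10.9.

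All 9 members are described. A member's fold and p are given where its unadjusted p is below 0.05, and for list genes up to 3 per list and comparison, by adjusted p and otherwise by p and no overlap. Other values of members were added after they were seen. The members, the lists and slides 1, 3 and 11 as a batch were chosen with earlier results of these data known. The alternatives were 16 kinds written at the start, and 2 chosen after seeing the data, which left out both healthy arrays that stood apart and tested each probe alone. Promoters came from a RefSeq table (GRCm38.p6).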

Additional observations from a re-analysis of the deposited data

Results flagged for a closer look

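The change of Mmp3 with the huoxue formula against the macroangiopathy group differed between aorta and skeletal muscle by 1.12 on the log2 scale (limma interaction term, adjusted p = 0.0256). Mmp3 was higher in the 3 huoxue aortas and lower in the 3 huoxue muscles than in the arrays of the macroangiopathy group. The huoxue muscle arrays were all on slide 11. With a term for slides 1, 3 and 11 the difference between the tissues was 0.09 and the muscle difference was 0.61, so the direction in muscle turned. That term was estimated from other groups, since no huoxue muscle was on another slide. The fit with 1 difference over both tissues gave 0.14 and holds no estimate for muscle alone. Groups of 3 arrays are too small for a search for single arrays that lie far from the others.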

How the results depend on the processing

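No call rests on counting depth, since arrays have none, and the limit is signal over background: Mmp9 was well above background on 12 of 21 aorta and 3 of 21 muscle arrays, and Mmp12 on 14 and 2. With 3 arrays per group, the number of members that passed moved when single arrays were left out. It went from 2 to 6 of A against G in aorta and from 1 to 3 in muscle, from 4 to 7 of C against G in aorta and from 2 to 3 in muscle, and from 1 to 3 of C against A in aorta and from 0 to 1 in muscle. It went from 0 to 2 of B against C in aorta and from 0 to 1 in muscle, from 1 to 3 of D against C in aorta and 0 to 0 in muscle, from 1 to 3 of E against C in aorta and from 0 to 4 in muscle, and from 0 to 1 of F against C in aorta and from 1 to 3 in muscle. Aorta against muscle and the differences between tissues were counted after adjustment. The first stayed at 7 to 7, and the others at 0 to 0 except 0 to 1 in E against C.

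In A against G in aorta, 3 members passed in place of 5 with 1 tissue alone, with normexp and an offset of 50, with tissue as a term and without both healthy arrays that stood apart. In muscle 1 passed in place of 2 with quantile normalization within each tissue, and 4 without both arrays. In C against G in muscle 4 passed in place of 2 with 1 tissue alone, with tissue as a term and without both arrays, and 1 with quantile normalization within each tissue. After adjustment, the C against G tissue difference had 1 in place of 0 without both arrays. In C against A in aorta 1 passed in place of 2 over all 42 arrays and with slide as a random block, and 0 with the batch term of slides 1, 3 and 11 and with tissue as a term. In B against C, 1 passed in place of 0 in aorta with the batch term, and 0 in place of 1 in muscle over all 42 arrays, with slide as a random block, with the batch term and with tissue as a term. In D against C, 0 passed in place of 1 in aorta over all 42 arrays, with the random block and with the batch term, and 1 in place of 0 in muscle with tissue as a term. In E against C in aorta 0 passed in place of 1 over all 42 arrays, with the random block and with the batch term, and 3 with tissue as a term. In E against C in muscle 1 passed in place of 4 over all 42 arrays and with the random block, 2 with the authors' value table and with the processed signal, and 0 with the batch term. The E against C tissue difference had, after adjustment, 0 in place of 1 over all 42 arrays, with the random block and with the batch term. In F against C in aorta 1 passed in place of 0 with the authors' value table and with the processed signal, and 2 with tissue as a term, and in muscle 1 passed in place of 2 over all 42 arrays, with the authors' value table, with the processed signal, with the random block and with the batch term. The cause was not tested in these cases. With tissue as a term, 1 difference over both tissues was counted under each tissue.

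Direction was counted as turned in 4 cases. With the batch term Mmp12 E vs C muscle was 0.27 and Mmp3 E vs C muscle was 0.61, and with quantile normalization within each tissue Mmp12 aorta vs muscle was -0.0074. With tissue as a term the value entered for Mmp3 E vs C muscle was 0.14. That fit gives 1 difference over both tissues, so this case holds no separate estimate for muscle. These counts cover only member differences with an unadjusted p-value below 0.05 in the main fit. Of their other values under an alternative, 1082 kept direction and side of the threshold, and 128 kept direction and missed it. In 1 case, Timp2 in the C against G tissue difference, the value newly passed after adjustment. Members that newly passed from outside that set, such as Timp3 in muscle without healthy aorta 1, are not in these counts. Without healthy aorta 1 the share of all genes that passed after adjustment was 3.42% in place of 2.22% in A against G in aorta, 3.43% in place of 1.45% in muscle, and 3.62% in place of 1.56% in C against G in muscle, and without healthy muscle 3 it was 0.966% in A against G in muscle. The median of all genes moved to 0.17 in A against G in muscle, 0.14 in C against G in muscle and 0.11 in E against C in muscle at most.

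Replicate numbers were not used as pairs, since the labels do not say whether they mark the same mouse. The deviations of same-numbered arrays had correlations from -0.52 to 0.59, and in 0 of 21 comparisons all 3 were over 0.1. Such deviations from a mean of 3 arrays cannot show that the arrays are unpaired. The tests between the tissues took them as independent. With the replicate number as a block, 3 members in place of 5 passed in A against G in aorta, 1 in place of 0 in B against C in aorta, and, after adjustment, 0 in place of 1 in the E against C tissue difference, and other counts stayed within 1.5 times.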
